A study of Homo sapiens with 17 samples.

Results

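Ribosome biogenesis factors are the proteins that make and assemble ribosomes in the nucleolus. They were followed here in PC3M, a cell line from a human prostate cancer, under proteasome inhibition and heat shock. The rule for members uses gene symbols and no measured value. It holds the NOP, UTP and RRP genes with numbered symbols, POLR1A to POLR1E, IMP3 and IMP4, and 11 further named genes, namely BOP1, PES1, WDR12, FBL, DKC1, GAR1, NHP2, NCL, NPM1, NOLC1 and UBTF. The rule found 44 genes, out of 13088 genes present in both deposited tables. By role they are 6 genes of RNA polymerase I and its activator, 3 of box C/D ribonucleoproteins, 4 of box H/ACA ribonucleoproteins, 3 abundant nucleolar proteins, 17 small subunit factors, 9 large subunit factors and 2 other transcripts. The last 2 only share a symbol with the factors. They are NOP14-AS1, an antisense RNA, and RRP7BP, a transcribed pseudogene.

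The study asked how HSF1, the main transcription factor of the heat shock response, and JMJD6, an oxygenase of the nucleus, are linked when proteins misfold. Messenger RNA was measured in 17 libraries of 7 groups by counting 1 tag near the 3' end of each captured transcript. In the first table, with 2 libraries a group, HSF1 knockout (KO) cells and cells transfected for 72 hours with an siRNA against JMJD6 (siJMJD6) received the proteasome inhibitor MG132 at 2.5 µM for 4 hours, and cells with a non-targeting siRNA (siNT) received MG132 or DMSO. In the second table, with 3 libraries a group, siJMJD6 and siNT cells were heated to 42 °C for 1 hour and left to recover for 2 hours, and siNT cells without heat are called basal. The labels give no siRNA for the KO cells and do not say whether their libraries, A and B, are separate clones. Since siJMJD6 and KO cells without stress are not analysed here, the effect of losing JMJD6 or HSF1 before stress and its effect on the stress response cannot be told apart. Nothing in the labels says that replicates are separate cultures, so p-values measure only the spread between these libraries.

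RNA polymerase I copies the ribosomal DNA into a long precursor RNA, which is cut, folded and modified while proteins assemble on it. Small nucleolar RNAs guide the chemical marks, those of the box C/D class guiding methylation of riboses and those of the box H/ACA class guiding the change of uridine to pseudouridine. The small subunit processome forms on the precursor first, and separate sets of factors build the small and the large subunit before export to the cytoplasm. Proliferating cancer cells make many ribosomes, and the transcription factor MYC activates many of these genes. The nucleolus also responds to heat and to proteasome inhibitors.

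Levels are the authors' normalised counts, a value in parentheses with ± is a log2 fold change with its standard error (SE), and a gene was tested where it reached 10 in at least 2 libraries of the MG132 table or 3 of the heat shock table. This kept 43 of the 44 genes in the MG132 table, all but UTP14C, and 44 in the heat shock table. NOP14-AS1 passed in the MG132 table through its siJMJD6 libraries alone, so it had to be higher there. In the heat shock table it reached 10 in the 3 siJMJD6 libraries and 1 basal library. The 44 genes together made up 0.874% to 1.28% of a library's total in the MG132 table and 0.915% to 1.08% in the heat shock table. Library totals of normalised counts ran from 1505826 to 1819640 and from 1630644 to 1726645, and replicates correlated at 0.919 to 0.953 and at 0.967 to 0.977 on the log2 scale across genes. The heat shock table, with more libraries and less spread, is therefore the more precise of the pair. Of 6 epithelial markers 5 averaged at least 10 over all libraries of each table. Of 4 mesenchymal markers, VIM, CD44, CDH2 and FN1, 4 did so in each table. Of 6 markers of androgen receptor-positive prostate cells 0 did in either table, and of 7 blood and endothelial markers only PECAM1 did. In the KO libraries the sum of CD14 and PECAM1 was 6.21 to 9.06. JMJD6, the siRNA target, averaged 21.6 in siJMJD6 MG132 libraries, against 148 in siNT MG132 libraries (log2 fold change -2.75 ± 0.32 SE, adjusted p = 0.00031), and 10.7 in siJMJD6 heat shock libraries, against 224 in siNT heat shock libraries (log2 fold change -4.31 ± 0.18 SE, adjusted p = 1.16e-19). HSF1 averaged 230.3 in KO libraries and 1786 in siNT MG132 libraries (log2 fold change -2.99 ± 0.27 SE, adjusted p = 5.32e-05), but the deleted part is not given, so a 3' tag does not check the deletion. Each library pools many cells, so fewer expressing cells and less RNA in each cell cannot be told apart.

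Where counting could mix transcripts, the annotation shows it. All 44 genes were found in the GENCODE release 29 annotation of GRCh38, 1 of them, UTP11L, under its newer symbol UTP11. For 13 members a gene on the other strand lies over the last 1000 bases of the gene, and no source used here gives the strand setting of the authors' counting. They are IMP3, NHP2, NOP14, NOP14-AS1, NOP16, NOP9, POLR1C, RRP36, RRP7A, RRP7BP, UBTF, UTP14A and UTP23. NOP14 (chromosome 4, 2937933 to 2963385, minus strand) and NOP14-AS1 (chromosome 4, 2934899 to 2961738, plus strand) overlap over most of their length. NOP2 and NOP9 share their last 1000 bases with a gene on the same strand. Named pseudogene copies exist for 6 members, 45 of them for NPM1, and RRP7A with RRP7BP and UTP14A with UTP14C are pairs of close copies, so the split of reads between such copies is uncertain.

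MG132 alone left these genes without a called change. Of 43 genes tested, 0 were higher and 0 lower in siNT MG132 libraries than in siNT DMSO libraries at a limma adjusted p under 0.05, where 0.266% of all genes were called (0.205% higher and 0.0614% lower). At an unadjusted p under 0.05, 4 were higher and 0 lower, and 268 and 285 of all 9778 genes were. Of the 43 genes 27 lay above 0, and 4842 of all 9778 genes did. The median log2 fold change of the 43 genes was 0.12, against -0.0049 for all genes. Without siNT MG132 replicate 2 this median was -0.038. NOP58, a core protein of box C/D particles, had 221 and 294 normalised counts in siNT MG132 libraries, against 135 and 169 in siNT DMSO libraries (log2 fold change 0.75 ± 0.27 SE, adjusted p = 0.664). The MG132 libraries lay above the DMSO libraries without overlap, by less than the test requires. Its partner NOP56 had 800.2 and 781 in siNT MG132 libraries and 592 and 525 in siNT DMSO libraries (log2 fold change 0.50 ± 0.22 SE, adjusted p = 0.837). RRP1, a large subunit factor, gave log2 fold change 0.67 ± 0.30 SE, adjusted p = 0.867, and the pseudogene RRP7BP gave log2 fold change 1.11 ± 0.45 SE, adjusted p = 0.785. All 3 box C/D genes lay above 0, with a median log2 fold change of 0.50, while 4 of 6 polymerase I genes lay below it, with a median of -0.18. MYC averaged 49.6 in siNT MG132 libraries and 202 in siNT DMSO libraries (log2 fold change -1.98 ± 0.52 SE, adjusted p = 0.288). Of 84 further ribosome biogenesis genes tested, 0 were called, and at an unadjusted p under 0.05 3 were higher and 1 lower.

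Heat shock with recovery changed 2 of the 44 genes in siNT cells, 1 upward and 1 downward, or 4.55%, where 4.09% of all genes were called (2.86% higher and 1.23% lower). Quantile normalisation gave 0 higher and 2 lower. UBTF, the factor that holds ribosomal DNA open for RNA polymerase I, fell. It had 361, 391 and 380.2 in siNT heat shock libraries, against 448, 519 and 441 in siNT basal libraries (log2 fold change -0.31 ± 0.09 SE, adjusted p = 0.0393). NOP10, the smallest protein of box H/ACA particles, rose, with 544, 573 and 473 in siNT heat shock libraries and 425, 419.9 and 420.0 in siNT basal libraries (log2 fold change 0.32 ± 0.091 SE, adjusted p = 0.0307). In both genes the groups did not overlap. The other 42 genes were not called. The median log2 fold change of the 44 genes was -0.11, against -0.0020 for all genes, and 30 of the 44 (68.2%) lay below 0, where 50.3% of all genes did. At an unadjusted p under 0.05, 1 gene was higher and 9 were lower, and 823 and 659 of all 9831 genes were. NPM1, the nucleolar chaperone nucleophosmin, had 2098, 2118 and 2372 in siNT heat shock libraries and 2529, 2499 and 2429 in siNT basal libraries (log2 fold change -0.18 ± 0.071 SE, adjusted p = 0.179). NOLC1, a chaperone of small nucleolar ribonucleoproteins, had 206, 188 and 219 in siNT heat shock libraries and 238, 238 and 223 in siNT basal libraries (log2 fold change -0.19 ± 0.11 SE, adjusted p = 0.404). These groups stood apart by less than the test requires. Of the 3 abundant nucleolar proteins NPM1 alone had an unadjusted limma p under 0.05. Of 84 further genes 0 were higher and 2 lower, which were CD3EAP, a subunit of RNA polymerase I (-0.70 ± 0.14, adjusted p = 0.00147), and RRS1, a factor of large subunit assembly (-0.34 ± 0.099, adjusted p = 0.0392). MYC fell to a mean of 439 in siNT heat shock libraries, against 567 in siNT basal libraries (log2 fold change -0.36 ± 0.10 SE, adjusted p = 0.0386). Neither call of a member held whenever 1 library was left out. NOP10 lost its call in 5 of 9 such fits and UBTF in 7 of 9, with adjusted p-values up to 0.233 and 0.241. The count of called members was 0 without siNT basal replicate 1 or 2 or siNT heat shock replicate 2, and 1 without siJMJD6 heat shock replicate 2 or 3. It was also 1 without siNT heat shock replicate 1, but NOP10 and UBTF both lost their calls there, so that lower call was another member.

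**Figure D1:**
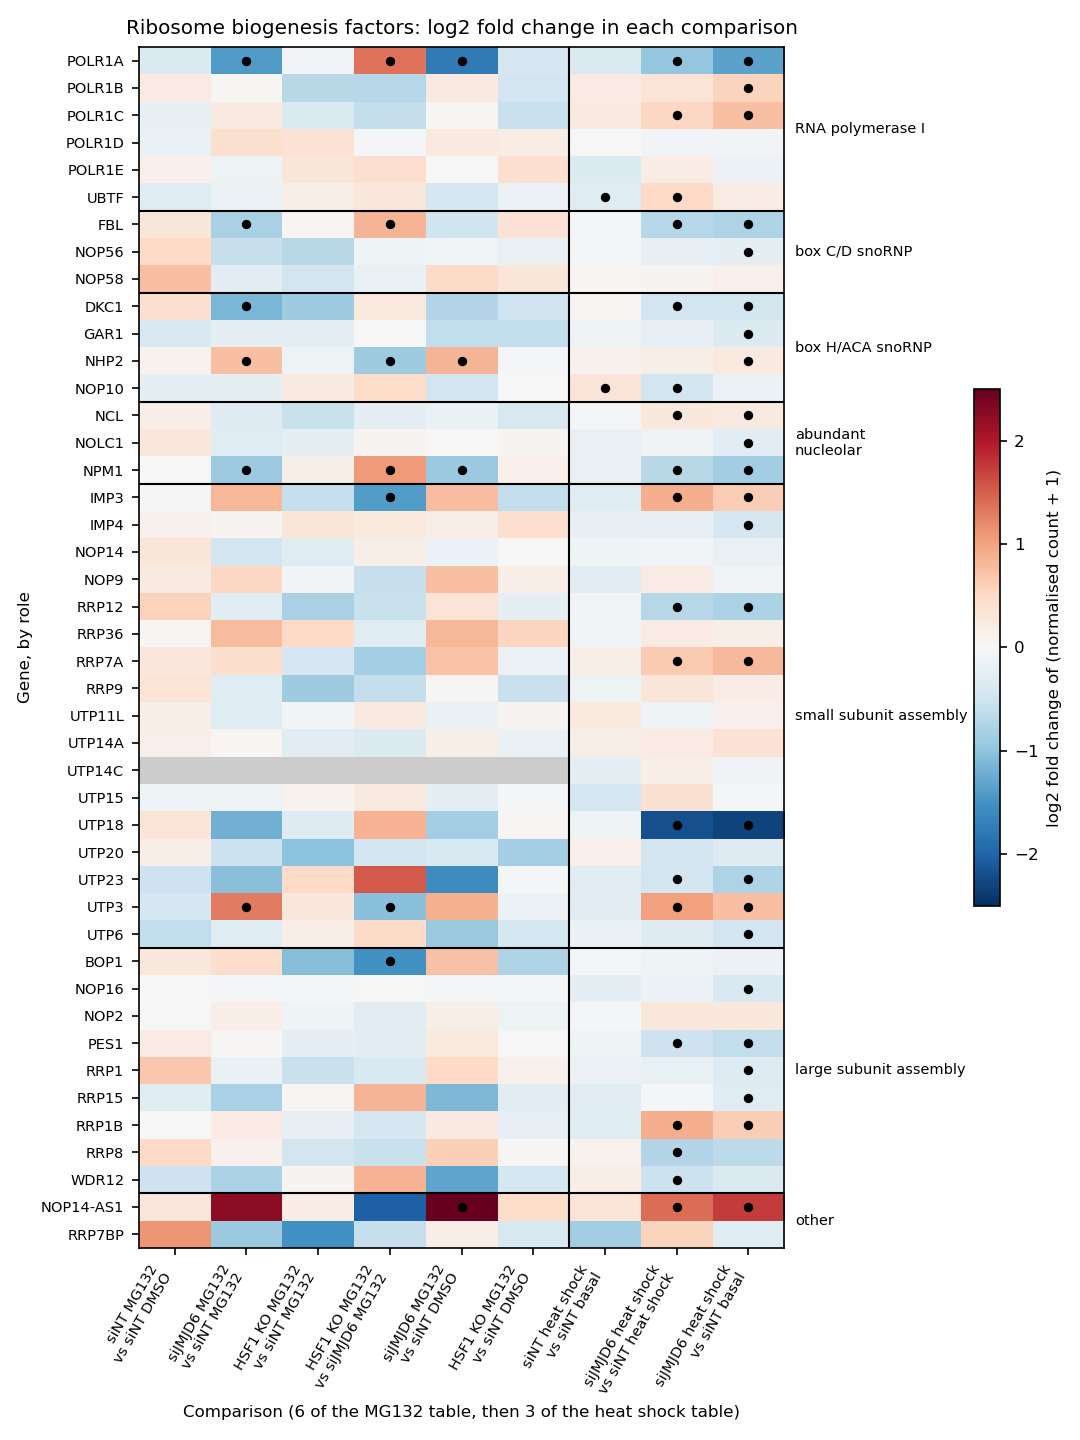
Log2 fold changes of the 44 genes (rows, grouped by role) in 9 comparisons (columns), with blue for lower and red for higher in the first-named group and a black dot for an adjusted p under 0.05. Grey marks UTP14C, which was not tested in the MG132 table. Dots are absent where MG132 or HSF1 KO is set against siNT alone, and 19 stand in the column of siJMJD6 against siNT after heat shock.

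JMJD6 siRNA split these genes in both directions, with POLR1A, FBL, DKC1 and NPM1 lower and UTP3 higher in both stresses. After heat shock, 19 of 44 genes (43.2%) were called, 8 higher and 11 lower in siJMJD6 than in siNT libraries, where 46.4% of all genes were called (21.4% higher and 24.9% lower). Under MG132, 6 of 43 genes (14.0%) were called, 2 higher and 4 lower, where 13.6% of all genes were called (6.22% higher and 7.35% lower). Quantile normalisation gave 1 higher and 5 lower. Both shares lie near the background. The median log2 fold change was -0.065 after heat shock and -0.17 under MG132, against -0.034 and -0.050 for all genes. Of the 19 calls after heat shock, 15 held in all 9 fits that left out 1 library. WDR12, RRP8, UTP23 and NOP14-AS1 lost theirs in 3 to 6 of those fits, with adjusted p-values up to 0.181, 0.279, 0.123 and 0.077. Under MG132, with 2 libraries a group, 0 of the 6 calls held in all 8 such fits, and the count was 1 without siNT MG132 replicate 1 and 3 without siNT MG132 replicate 2 or either KO library. The median SE of the members' log2 fold changes was 0.13 after heat shock and 0.33 under MG132.

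Promoter sequence is shown for 6 genes chosen after their values were seen, namely the 5 called in both stresses and UTP18, which had the largest fall after heat shock. Each is the 150 bases before the RefSeq start site in build GRCh38.p14, written 5′ to 3′ on the gene's strand in lower case. Capitals mark matches to CACGTG, the E-box bound by MYC and its relatives, and to CCGGAAG or its reverse complement, an ETS-type motif.
UTP18, chr17:51260396-51260545, plus strand: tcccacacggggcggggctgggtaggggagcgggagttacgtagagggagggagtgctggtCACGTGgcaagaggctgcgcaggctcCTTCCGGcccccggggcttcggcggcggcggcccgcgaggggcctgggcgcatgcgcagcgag
FBL, chr19:39846380-39846529, minus strand: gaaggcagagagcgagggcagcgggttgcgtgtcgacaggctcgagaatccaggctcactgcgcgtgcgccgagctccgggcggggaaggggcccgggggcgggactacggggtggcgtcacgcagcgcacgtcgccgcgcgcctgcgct
DKC1, chrX:154762714-154762863, plus strand: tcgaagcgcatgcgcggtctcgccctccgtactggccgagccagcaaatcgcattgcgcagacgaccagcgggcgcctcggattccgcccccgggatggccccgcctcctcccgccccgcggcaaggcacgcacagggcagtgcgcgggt
NPM1, chr5:171387699-171387848, plus strand: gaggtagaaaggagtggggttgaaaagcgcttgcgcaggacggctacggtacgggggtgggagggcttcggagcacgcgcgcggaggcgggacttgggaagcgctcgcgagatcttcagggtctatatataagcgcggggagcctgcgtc
POLR1A, chr2:86105887-86106036, minus strand: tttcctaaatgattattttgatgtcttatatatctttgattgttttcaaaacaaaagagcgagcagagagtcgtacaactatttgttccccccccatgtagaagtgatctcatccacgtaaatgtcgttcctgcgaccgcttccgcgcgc
UTP3, chr4:70688382-70688531, plus strand: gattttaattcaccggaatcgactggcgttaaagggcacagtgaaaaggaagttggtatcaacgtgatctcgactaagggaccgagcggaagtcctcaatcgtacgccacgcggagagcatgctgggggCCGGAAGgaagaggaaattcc

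RefSeq promoters, from 250 bases before to 50 after the start, were matched for 36 of the 44 members. Both strands were searched for 3 motifs, the E-box CACGTG, the ETS-type CCGGAAG and the canonical heat shock element bound by HSF1 (3 repeats in alternating direction). CACGTG was found in 10 of the 36 (27.8%), which were FBL, IMP4, NOP10, NOP14, NOP2, PES1, RRP9, UTP14A, UTP18 and UTP20, and in 7.43% of all 27305 promoters in the table. CCGGAAG was found in 11 of the 36 (30.6%), against 10.7% of all promoters. The heat shock element was found in 0 of the 36, against 0.487% of all promoters. Matches to different motifs did not overlap in the member promoters. Of the 6 promoters printed, UTP18 held CACGTG 89 bases before the start and again just after it. FBL held CACGTG after its start only, and its CCGGAAG lies farther upstream than the bases shown. DKC1, NPM1 and POLR1A held no match to these letters in this window. Matches are descriptions of letters. Of the members with CACGTG, UTP18, FBL, PES1 and NOP10 were called lower in siJMJD6 than in siNT libraries after heat shock. IMP4, NOP14, NOP2, RRP9, UTP14A and UTP20 were not called in that comparison. Of all genes 46.4% were called there, 24.9% of them all being lower calls. DKC1, NPM1 and POLR1A, without a match, were called lower as well. A link between the motif and the calls was not tested.

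Among the genes of RNA polymerase I, JMJD6 siRNA gave opposite directions. POLR1A, the large catalytic subunit, fell after heat shock, with 28.6, 17.1 and 18.6 in siJMJD6 libraries, against 35.7, 44.1 and 46.9 in siNT libraries (log2 fold change -0.97 ± 0.23 SE, adjusted p = 0.000627). Under MG132 it fell as well, to 9.64 and 10.1 in siJMJD6 libraries, against 38.1 and 20.8 in siNT libraries (log2 fold change -1.42 ± 0.42 SE, adjusted p = 0.0417). In both stresses every siJMJD6 library lay below every siNT library. The MG132 call rested on low counts. It was lost in every fit that left out 1 library except the one without siNT MG132 replicate 2, with adjusted p-values up to 0.273, and the log2 fold change was -0.95 with 10 in place of 1 added before the logarithm. UBTF rose after heat shock, to 515, 541 and 538 in siJMJD6 libraries, against 361, 391 and 380.2 in siNT libraries (log2 fold change 0.49 ± 0.09 SE, adjusted p = 2.94e-05). POLR1C, a subunit shared with RNA polymerase III, rose too, with 138, 153 and 181 in siJMJD6 heat shock libraries and 99.5, 95.4 and 135 in siNT heat shock libraries (log2 fold change 0.52 ± 0.15 SE, adjusted p = 0.00433). Under MG132 neither was called, and UBTF had 238 and 322 in siJMJD6 libraries, against 331 and 283 in siNT libraries, which overlapped (log2 fold change -0.14 ± 0.24 SE, adjusted p = 0.74). POLR1B, which forms the core of the enzyme with POLR1A, had 81.3, 71.1 and 72.6 in siJMJD6 heat shock libraries and 59.9, 48.4 and 71.1 in siNT heat shock libraries (log2 fold change 0.34 ± 0.18 SE, adjusted p = 0.118). Under MG132 POLR1B had 42.5 and 50.2 in siJMJD6 libraries and 38.1 and 54 in siNT libraries, which overlapped. POLR1D and POLR1E were not called in either stress.

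Of the box C/D proteins, FBL alone was called. FBL, fibrillarin, is the enzyme that methylates ribosomal RNA. It fell after heat shock to 1315, 1109 and 1206 in siJMJD6 libraries, against 2052, 2002 and 1902 in siNT libraries (log2 fold change -0.72 ± 0.073 SE, adjusted p = 5.14e-10). It also fell under MG132, to 1744 and 1518 in siJMJD6 libraries, against 2423 and 3350.0 in siNT libraries (log2 fold change -0.81 ± 0.23 SE, adjusted p = 0.0386). The siJMJD6 libraries lay below all siNT libraries of the same stress in each table, and the spread between replicates after heat shock was far smaller than the difference. NOP56 had 547, 452 and 530.3 in siJMJD6 heat shock libraries and 637, 555 and 568 in siNT heat shock libraries (log2 fold change -0.20 ± 0.091 SE, adjusted p = 0.0644), and 579 and 487 in siJMJD6 MG132 libraries, against 800.2 and 781 in siNT MG132 libraries (log2 fold change -0.57 ± 0.22 SE, adjusted p = 0.105). NOP58 had 286, 271 and 299 in siJMJD6 heat shock libraries and 299, 271 and 249 in siNT heat shock libraries, which overlapped (log2 fold change 0.068 ± 0.10 SE, adjusted p = 0.62). The MG132 call of FBL was lost in 7 of 8 fits that left out 1 library, all but the one without siJMJD6 MG132 replicate 1, with adjusted p-values from 0.040 to 0.231.

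The 4 proteins of the box H/ACA particle did not move together. DKC1, dyskerin, the pseudouridine synthase of the particle, fell after heat shock to 869, 813 and 836 in siJMJD6 libraries, against 1341, 1206 and 979.8 in siNT libraries (log2 fold change -0.47 ± 0.094 SE, adjusted p = 9.1e-05). Under MG132 it had 737 and 841 in siJMJD6 libraries and 1484 and 2033 in siNT libraries (log2 fold change -1.14 ± 0.24 SE, adjusted p = 0.00931), the smallest adjusted p of the set in that comparison. Its groups did not overlap in either stress, and the MG132 call was lost only without siNT MG132 replicate 2 (log2 fold change -0.91, adjusted p = 0.0781). NOP10 fell after heat shock, with 381, 367 and 390.1 in siJMJD6 libraries and 544, 573 and 473 in siNT libraries (log2 fold change -0.48 ± 0.091 SE, adjusted p = 5.08e-05). Under MG132 its siJMJD6 libraries were far apart, at 94.7 and 278, and enclosed the 173 and 213 of the siNT libraries. NHP2, which binds the guide RNA, went the other way under MG132, with 959 and 851 in siJMJD6 libraries and 539 and 532 in siNT libraries (log2 fold change 0.75 ± 0.23 SE, adjusted p = 0.0477), but this call was lost in all 8 fits that left out 1 library, with adjusted p-values up to 0.173. After heat shock NHP2 had 485, 389 and 394 in siJMJD6 libraries and 376, 392 and 376 in siNT libraries, which overlapped (log2 fold change 0.14 ± 0.096 SE, adjusted p = 0.231). GAR1, the protein that helps release the modified RNA, had 243, 237 and 266 in siJMJD6 heat shock libraries and 278, 254 and 336 in siNT heat shock libraries (log2 fold change -0.21 ± 0.11 SE, adjusted p = 0.0996).

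**Figure D2:**
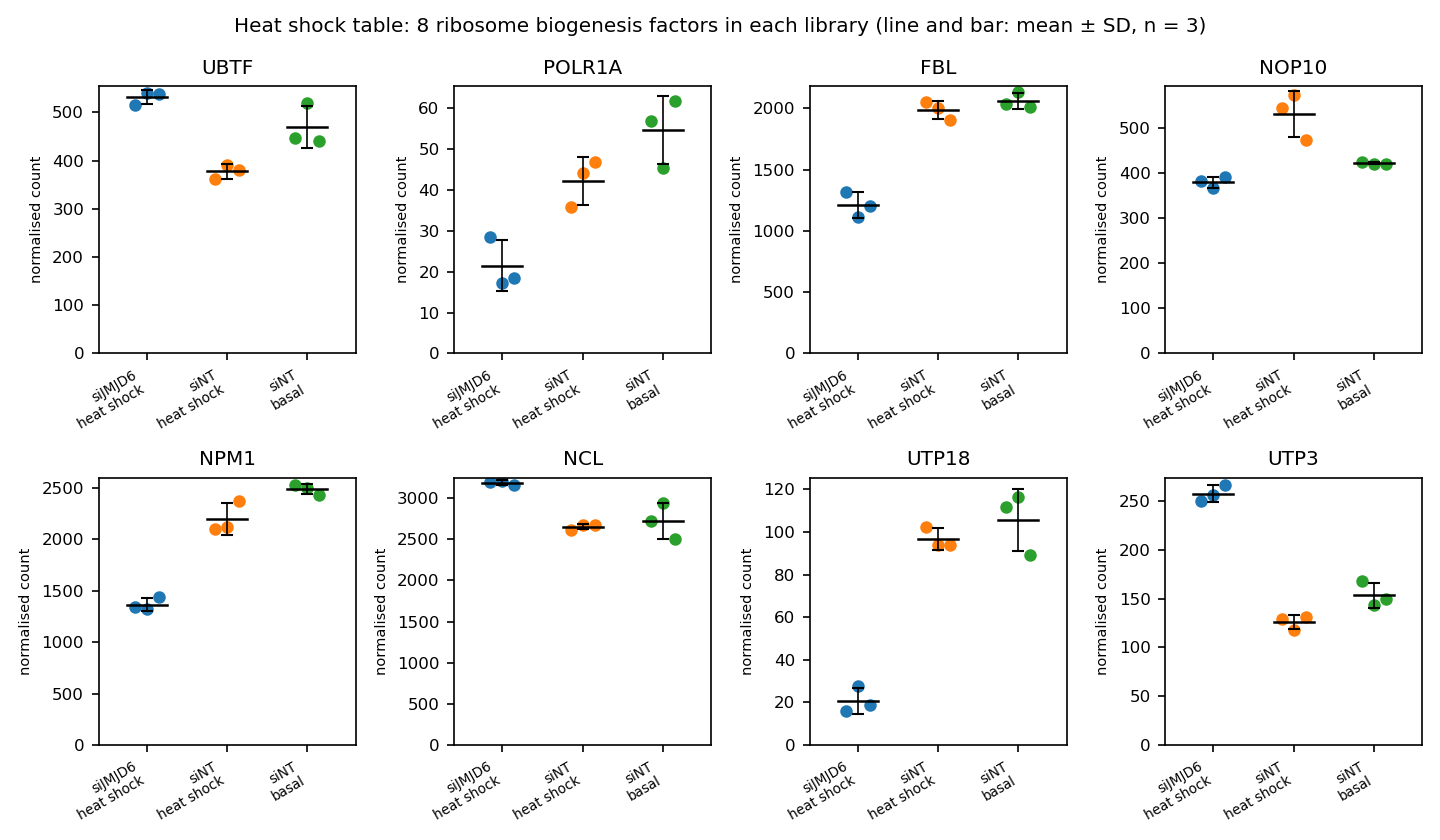
Normalised counts (y axis, from 0) of 8 genes in the 9 libraries of the heat shock table, with 1 point per library and a line and bar for the mean ± SD of 3 libraries. UTP18 lay at 16, 27.8 and 18.6 in siJMJD6 libraries, below every siNT library, and UTP3 at 250.3, 256 and 267, above every siNT library.

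The abundant nucleolar proteins also differed among themselves. NPM1 fell after heat shock to 1339.8, 1316 and 1438 in siJMJD6 libraries, against 2098, 2118 and 2372 in siNT libraries (log2 fold change -0.68 ± 0.071 SE, adjusted p = 6.67e-10). Under MG132 it fell to 1072 and 1277 in siJMJD6 libraries, against 2016 and 2414 in siNT libraries (log2 fold change -0.91 ± 0.24 SE, adjusted p = 0.0248). In both tables the groups stood clear of each other. The MG132 call was lost without siNT MG132 replicate 1 or 2 or siJMJD6 MG132 replicate 1, with adjusted p-values up to 0.133 over the 8 such fits. NCL, nucleolin, rose slightly after heat shock, with 3200.2, 3207 and 3156 in siJMJD6 libraries and 2618, 2669 and 2673 in siNT libraries (log2 fold change 0.26 ± 0.068 SE, adjusted p = 0.0016). Under MG132 NCL had 1815 and 1989.5 in siJMJD6 libraries and 2539 and 2243 in siNT libraries (log2 fold change -0.33 ± 0.21 SE, adjusted p = 0.343), so the libraries separated in the opposite direction. NOLC1 was not called, with 198, 186 and 190.1 in siJMJD6 heat shock libraries and 206, 188 and 219 in siNT heat shock libraries, and with 127 and 138 in siJMJD6 MG132 libraries, against 178 and 148 in siNT MG132 libraries.

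Among the protein-coding members, small subunit factors had the largest fall (UTP18) and the largest rise (UTP3) with JMJD6 siRNA after heat shock. UTP18, a part of the U3-bound processome, fell after heat shock to 16, 27.8 and 18.6 in siJMJD6 libraries, against 103, 93.9 and 93.8 in siNT libraries (log2 fold change -2.20 ± 0.19 SE, adjusted p = 7.8e-12). Under MG132 it had 37.2 and 18.5 in siJMJD6 libraries and 54.6 and 69.1 in siNT libraries (log2 fold change -1.19 ± 0.40 SE, adjusted p = 0.0667), and the groups stood apart without reaching the threshold. UTP3, the human Sas10 protein of the processome, rose in both stresses. It had 250.3, 256 and 267 in siJMJD6 heat shock libraries, against 129, 118 and 131 in siNT heat shock libraries (log2 fold change 1.03 ± 0.12 SE, adjusted p = 4.34e-09). Under MG132 UTP3 had 251 and 380.2 in siJMJD6 libraries and 95.8 and 163 in siNT libraries (log2 fold change 1.30 ± 0.31 SE, adjusted p = 0.0173), a call lost without siNT MG132 replicate 1 (adjusted p = 0.154) or siJMJD6 MG132 replicate 2 (adjusted p = 0.069). IMP3, which joins the U3 RNA to the precursor, rose after heat shock, with 316, 330.3 and 348 in siJMJD6 libraries and 203, 153 and 173 in siNT libraries (log2 fold change 0.92 ± 0.11 SE, adjusted p = 2.07e-08). Under MG132 IMP3 had 516 and 429 in siJMJD6 libraries and 199.8 and 349 in siNT libraries (log2 fold change 0.83 ± 0.30 SE, adjusted p = 0.0822). Its partner IMP4 was not called, at -0.21 ± 0.10 after heat shock and 0.06 ± 0.24 under MG132 (log2 fold change ± SE). RRP7A rose after heat shock (log2 fold change 0.66 ± 0.13 SE, adjusted p = 0.0001). RRP12, which acts in the export of pre-ribosomes, and UTP23, a processome factor, fell (-0.72 ± 0.20, adjusted p = 0.00364, and -0.48 ± 0.19, adjusted p = 0.0375). UTP14A, a partner of the helicase that frees the U3 RNA, had 52.8, 52 and 49 in siJMJD6 heat shock libraries and 50.2, 52.8 and 32.8 in siNT heat shock libraries, which overlapped. In all, 3 of 17 small subunit genes rose and 3 fell after heat shock (35.3%, where 46.4% of all genes were called), and 1 of 16 rose and 0 fell under MG132 (6.25%, where 13.6% of all genes were called).

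Of the 9 large subunit factors 1 rose and 3 fell with JMJD6 siRNA after heat shock (44.4%, where 46.4% of all genes were called). Under MG132 0 were called, where 13.6% of all genes were, and 0 had an unadjusted limma p under 0.05, as 2769 of all 9778 genes had. BOP1, PES1 and WDR12 form a complex needed for maturation of the large subunit. PES1 fell after heat shock to 279, 253 and 269.5 in siJMJD6 libraries, against 360.3, 404 and 379 in siNT libraries (log2 fold change -0.51 ± 0.10 SE, adjusted p = 7.69e-05). WDR12 fell to 22.3, 26.6 and 33.3 in siJMJD6 heat shock libraries, against 39.6, 40.9 and 38.7 in siNT heat shock libraries (log2 fold change -0.54 ± 0.22 SE, adjusted p = 0.0459), a call lost without siNT basal replicate 2, siJMJD6 heat shock replicate 1 or 2 or any siNT heat shock library. BOP1 had 2903, 2454 and 2687 in siJMJD6 heat shock libraries and 3179, 3124 and 2401 in siNT heat shock libraries, which overlapped (log2 fold change -0.11 ± 0.081 SE, adjusted p = 0.297). Under MG132 BOP1 had 5078 and 5208 in siJMJD6 libraries and 2890.1 and 4981 in siNT libraries (log2 fold change 0.44 ± 0.35 SE, adjusted p = 0.446). PES1 had 747 and 535 in siJMJD6 MG132 libraries, against 520.1 and 741 in siNT MG132 libraries. WDR12 had 12.8 and 9.22 in siJMJD6 MG132 libraries, against 26.8 and 14.2 in siNT MG132 libraries. Of these 3 genes PES1 alone overlapped under MG132, and none was called. The share of all genes without overlap was not counted. With 2 libraries a group separation can arise without an effect, so this is a description and no result. RRP1B, a nucleolar protein of the RRP1 family, rose after heat shock, with 321, 287 and 258 in siJMJD6 libraries and 152, 159 and 147 in siNT libraries (log2 fold change 0.91 ± 0.12 SE, adjusted p = 2.09e-07). Its relative RRP1 was not called (-0.18 ± 0.13), and RRP8, a methyltransferase of the large ribosomal RNA, fell (-0.73 ± 0.29, adjusted p = 0.04), a call lost without siNT heat shock replicate 1 or 2 or siJMJD6 heat shock replicate 1.

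The antisense RNA NOP14-AS1 had 12.7, 21.1 and 19.6 in siJMJD6 heat shock libraries, against 7.69, 4.42 and 6.27 in siNT heat shock libraries (log2 fold change 1.40 ± 0.47 SE, adjusted p = 0.0156). It is 1 of the 8 higher calls after heat shock, at low counts, and its log2 fold change was 0.78 with 10 added before the logarithm. It had 28.6 and 28 in siJMJD6 MG132 libraries, against 3.13 and 8.47 in siNT MG132 libraries. Since the filter kept it through siJMJD6 libraries, these values are a description and support nothing. NOP14 itself, a small subunit factor read from the opposite strand, was not called (-0.062 ± 0.10 after heat shock and -0.45 ± 0.24 under MG132).

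Most other members were not called with JMJD6 siRNA. After heat shock the 25 genes without a call ran from UTP20 (-0.46 ± 0.21, adjusted p = 0.0665), a scaffold of the processome, to RRP7BP (0.56 ± 0.43, adjusted p = 0.295). UTP6 and UTP15 of the processome had -0.33 ± 0.19 and 0.38 ± 0.21, and RRP9, which binds the U3 RNA, had 0.31 ± 0.16 (log2 fold change ± SE). NOP2, a methyltransferase of the large subunit RNA, had 0.29 ± 0.19, and UTP14C, a close copy of UTP14A, had 0.16 ± 0.38. Under MG132 the protein-coding genes without a call ran from UTP18 to IMP3, and RRP36, a small subunit factor, had 0.79 ± 0.28, adjusted p = 0.0758. UTP23 had -1.04 ± 0.54, adjusted p = 0.227, and RRP15, a large subunit factor, had -0.80 ± 0.39, adjusted p = 0.191.

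The JMJD6 siRNA effect was in the same direction in both stresses for 31 of 43 genes (72.1%), compared with 74.0% of the 9379 genes tested in both tables, and these comparisons share no library. All 6 genes called under MG132 had the same sign after heat shock, and 5 of them were also called there, which is 83.3% of the MG132 calls and 26.3% of the heat shock calls. The 5 genes were POLR1A, FBL, DKC1, NPM1 and UTP3. Over all genes the shares were 83.3% and 24.5%, and 1230 of the 1291 genes called under MG132 had the same sign after heat shock. NHP2 was the remaining MG132 call. The sizes differed for single genes, with DKC1 at -1.14 ± 0.24 under MG132 and -0.47 ± 0.094 after heat shock, and UTP18 at -1.19 ± 0.40 and -2.20 ± 0.19. Sizes were not tested against each other, since the tables were normalised separately.

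**Figure D3:**
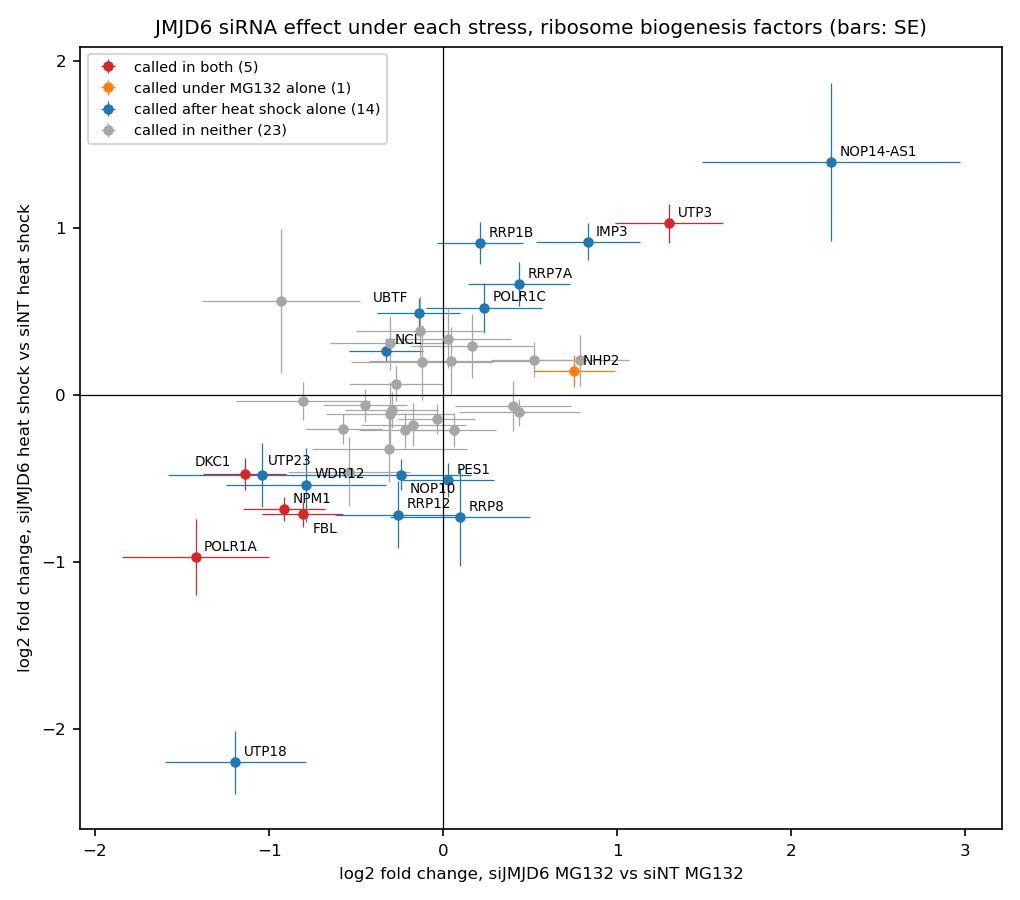
Log2 fold change of siJMJD6 against siNT under MG132 (x axis) and after heat shock (y axis) for the 43 genes tested in both tables, with bars of 1 SE and colours for the calls. The 5 genes called in both stand in the lower left (POLR1A, FBL, DKC1, NPM1) and upper right (UTP3) quadrants.

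Of 84 further ribosome biogenesis genes, 15 rose and 26 fell with JMJD6 siRNA after heat shock (48.8%, where 46.4% of all genes were called), and 1 rose and 8 fell under MG132 (10.7%, where 13.6% of all genes were called). Under MG132 their median log2 fold change was -0.36, against -0.050 for all genes, and 73.8% of them lay below 0, against 52.3% of all genes. EMG1, a methyltransferase of the small subunit RNA, fell in both (-1.26 ± 0.11, adjusted p = 4.24e-12 after heat shock, and -1.12 ± 0.24, adjusted p = 0.00919 under MG132). EXOSC4, a subunit of the RNA exosome, rose in both (0.96 ± 0.11, adjusted p = 1.48e-08 after heat shock, and 1.66 ± 0.31, adjusted p = 0.00466 under MG132). After heat shock NOL9, a kinase of precursor RNA ends, fell (-0.86 ± 0.13, adjusted p = 9.74e-07), and RRN3, the initiation factor of RNA polymerase I, rose (0.75 ± 0.11, adjusted p = 1.22e-06). Under MG132 NOC3L, a large subunit factor, and the exosome subunit EXOSC7 fell (-2.16 ± 0.41, adjusted p = 0.00528, and -1.37 ± 0.27, adjusted p = 0.00632). MYC fell with JMJD6 siRNA after heat shock, to a mean of 314 in siJMJD6 libraries, against 439 in siNT libraries (log2 fold change -0.48 ± 0.10 SE, adjusted p = 0.000232). Under MG132 MYC averaged 54.8 in siJMJD6 libraries and 49.6 in siNT libraries (log2 fold change -0.20 ± 0.52 SE, adjusted p = 0.831). The siJMJD6 libraries were far apart, at 20.3 and 89.2, and enclosed the 45.4 and 53.9 of the siNT libraries, so MYC had no clear direction there. Its part in the member values was not tested.

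Set against unstressed siNT cells, heat-shocked siJMJD6 cells had 25 of the 44 genes called, 9 higher and 16 lower (56.8%), where 46.3% of all genes were called (22.2% higher and 24.2% lower), and the median log2 fold change was -0.15, against -0.018 for all genes. This comparison joins the effects of siRNA and heat and shares its libraries with those above. The genes NPM1 (log2 fold change -0.87 ± 0.071 SE, adjusted p = 2.64e-12), UTP18 (-2.32 ± 0.19, adjusted p = 2.14e-12) and FBL (-0.77 ± 0.073, adjusted p = 1.01e-10) had the smallest adjusted p-values. NPM1 had 1339.8, 1316 and 1438 in siJMJD6 heat shock libraries, against 2529, 2499 and 2429 in siNT basal libraries. FBL had 1315, 1109 and 1206 in siJMJD6 heat shock libraries, against 2034, 2129.8 and 2008 in siNT basal libraries. UTP18 had 16, 27.8 and 18.6 in siJMJD6 heat shock libraries, against 112, 116 and 89.3 in siNT basal libraries. All siJMJD6 libraries lay below all basal libraries in these 3 genes. IMP4 (-0.41 ± 0.10, adjusted p = 0.0011), NOP16, a large subunit factor (-0.37 ± 0.092, adjusted p = 0.00116), and GAR1 (-0.34 ± 0.11, adjusted p = 0.00882) fell, as did DKC1, PES1, POLR1A, RRP12, UTP23, NOP56, NOLC1, RRP1, RRP15 and UTP6. UTP3 (0.75 ± 0.12, adjusted p = 2.04e-06), RRP7A (0.82 ± 0.13, adjusted p = 4.63e-06), POLR1C (0.75 ± 0.15, adjusted p = 9.18e-05) and POLR1B (0.55 ± 0.18, adjusted p = 0.0106) rose, as did IMP3, RRP1B, NCL and NHP2. The remaining higher call was NOP14-AS1. Its siJMJD6 libraries were enough to pass the filter, so its place in the counts is no result. UBTF, by contrast, had 515, 541 and 538 in siJMJD6 heat shock libraries, against 448, 519 and 441 in siNT basal libraries (log2 fold change 0.18 ± 0.09 SE, adjusted p = 0.0984). These groups overlapped. NOP10 was likewise not called (-0.15 ± 0.091, adjusted p = 0.172). Of the 25 calls 18, NOP14-AS1 among them, held in all 9 fits without 1 library, and NHP2, NOLC1, NOP56, POLR1B, RRP1, RRP15 and UTP6 did not, with adjusted p-values up to 0.269. The fits that lost most of these were those without siNT basal replicate 1 (6 genes) or 2 (5 genes) or siJMJD6 heat shock replicate 1 (4 genes). Of the further genes 11 rose and 30 fell, among them EMG1 (-1.41 ± 0.11, adjusted p = 2.81e-13) and FTSJ3, a methyltransferase of large subunit assembly, which rose (0.99 ± 0.12, adjusted p = 3.43e-08).

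Set against siNT DMSO libraries, siJMJD6 MG132 libraries had 2 higher and 2 lower genes of 43 (9.30%), where 13.4% of all genes were called (6.2% higher and 7.18% lower). Quantile normalisation gave 1 higher and 4 lower. POLR1A fell, with 9.64 and 10.1 in siJMJD6 MG132 libraries, against 36.9 and 35.6 in siNT DMSO libraries (log2 fold change -1.78 ± 0.42 SE, adjusted p = 0.0156). NPM1 fell, with 1072 and 1277 in siJMJD6 MG132 libraries, against 1883 and 2642 in siNT DMSO libraries (log2 fold change -0.93 ± 0.24 SE, adjusted p = 0.0214). The siJMJD6 libraries lay below the DMSO libraries in both genes. NHP2 had 959 and 851 in siJMJD6 MG132 libraries, against 586 and 430.5 in siNT DMSO libraries (log2 fold change 0.85 ± 0.23 SE, adjusted p = 0.0303). The other higher gene was NOP14-AS1, with 28.6 and 28 in siJMJD6 MG132 libraries, against 1.6 and 9.17 in siNT DMSO libraries. The filter kept it through siJMJD6 libraries alone, so its place in the count is no result, and its log2 fold change of 2.51 was 1.53 without siNT DMSO replicate 1, 3.49 without siNT DMSO replicate 2 and 1.36 with 10 added before the logarithm. Of the further genes 3 rose and 8 fell. The count of 4 was 1 without siNT DMSO replicate 1 or 2, 2 without siJMJD6 MG132 replicate 1 or either KO library, and 10 without siJMJD6 MG132 replicate 2.

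In HSF1 KO cells under MG132 0 of the 43 genes were called against siNT MG132 libraries, where 1.28% of all genes were called (0.276% higher and 1% lower). At an unadjusted limma p under 0.05, 0 were higher and 8 lower, and 575 and 678 of all 9778 genes were. The median log2 fold change was -0.21, against 0.014 for all genes, and 28 of the 43 (65.1%) lay below 0, where 48.6% of all genes did. Leaving out KO library A gave a median of -0.33 and leaving out KO library B gave -0.054. DKC1 had 1079.9 and 804 in KO libraries, against 1484 and 2033 in siNT MG132 libraries (log2 fold change -0.90 ± 0.24 SE, adjusted p = 0.106), with all KO values lower. BOP1 had 2729 and 1204 in KO libraries and 2890.1 and 4981 in siNT MG132 libraries (log2 fold change -1.07 ± 0.35 SE, adjusted p = 0.198), and the KO libraries lay far apart. NOP56 had 524 and 458 in KO libraries and 800.2 and 781 in siNT MG132 libraries (log2 fold change -0.69 ± 0.22 SE, adjusted p = 0.188). NCL had 1739.9 and 1516 in KO libraries and 2539 and 2243 in siNT MG132 libraries (log2 fold change -0.55 ± 0.21 SE, adjusted p = 0.287). Against the same siNT MG132 libraries, FBL, NPM1 and POLR1A had log2 fold changes of 0.048 ± 0.23, 0.14 ± 0.24 and -0.061 ± 0.42 in KO libraries. Against siNT DMSO libraries, 0 of 43 were called too, where 0.931% of all genes were called (0.368% higher and 0.562% lower), and 0 were higher and 3 lower at an unadjusted limma p under 0.05, as were 617 and 621 of all genes. The 2 with the smallest p were UTP20 (log2 fold change -0.85 ± 0.35 SE, adjusted p = 0.318) and GAR1 (log2 fold change -0.61 ± 0.26 SE, adjusted p = 0.346). None of the 84 further genes was called in either KO comparison, with 4 higher and 6 lower at an unadjusted limma p under 0.05 against siNT MG132, and 5 higher and 2 lower against siNT DMSO.

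**Figure D4:**
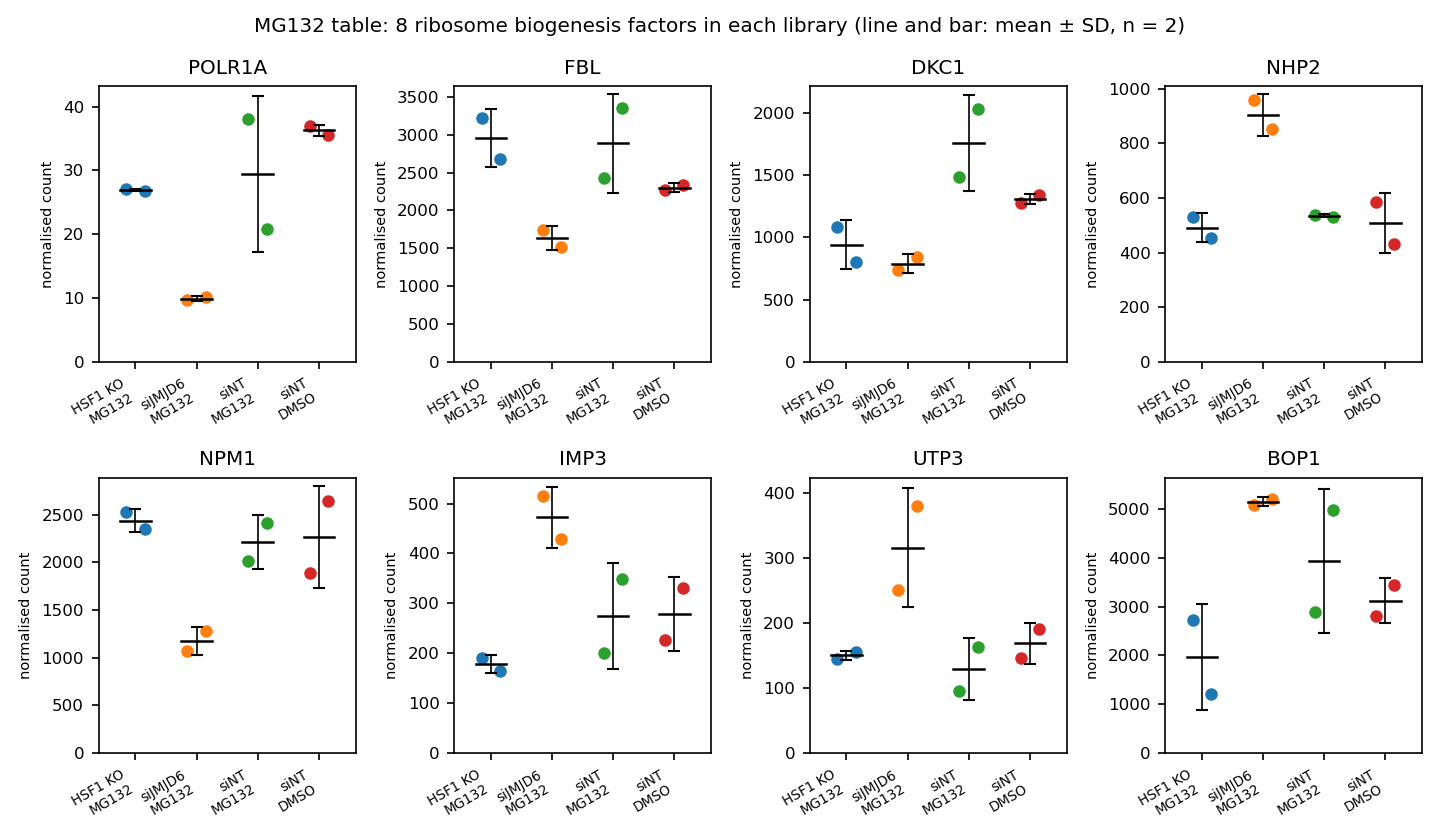
Normalised counts (y axis, from 0) of 8 genes in the 8 libraries of the MG132 table, with 1 point per library and a line and bar for the mean ± SD of 2 libraries. NPM1, FBL and POLR1A are lowest in the siJMJD6 libraries, and BOP1 ranges from 1204 to 2729 within the KO libraries.

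The direct contrast of HSF1 KO with siJMJD6 cells, both under MG132, had 3 higher and 4 lower genes of 43 (16.3%), where 20.8% of all genes were called (11.1% higher and 9.69% lower). NPM1 had 2522 and 2349 in KO libraries, against 1072 and 1277 in siJMJD6 libraries (log2 fold change 1.06 ± 0.24 SE, adjusted p = 0.00808). FBL had 3228 and 2686 in KO libraries and 1744 and 1518 in siJMJD6 libraries (log2 fold change 0.86 ± 0.23 SE, adjusted p = 0.021). POLR1A had 27.1 and 26.8 in KO libraries and 9.64 and 10.1 in siJMJD6 libraries (log2 fold change 1.36 ± 0.42 SE, adjusted p = 0.0361). These 3 genes were higher in every KO library. IMP3 had 191 and 165 in KO libraries and 516 and 429 in siJMJD6 libraries (log2 fold change -1.40 ± 0.30 SE, adjusted p = 0.00626), and BOP1 had 2729 and 1204 in KO libraries, against 5078 and 5208 in siJMJD6 libraries (log2 fold change -1.50 ± 0.35 SE, adjusted p = 0.00948). NHP2 and UTP3 were also lower in KO libraries (-0.88 ± 0.23, adjusted p = 0.0178, and -1.04 ± 0.31, adjusted p = 0.0314). DKC1 was not called (0.24 ± 0.24, adjusted p = 0.503). Of the further genes 16 were higher and 3 lower in KO libraries, among them the exosome subunit EXOSC3 (2.14 ± 0.36, adjusted p = 0.00161), the processome factor KRR1 (1.72 ± 0.30, adjusted p = 0.00198) and NOL9 (1.58 ± 0.29, adjusted p = 0.00278), all higher, and EXOSC4 (-1.54 ± 0.31, adjusted p = 0.00445), lower. The 7 calls became 2 without KO library A and 0 without KO library B, and without KO library B the log2 fold change of BOP1 was -0.91.

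Some members carry small nucleolar RNA genes within them, on the same strand, in the GENCODE annotation. They were 5 of the 42 protein-coding members (11.9%), against 1.66% of the 12717 protein-coding genes named in either table. NOP56 holds 5 such RNA genes, NOP58 holds 4, NCL holds 3, DKC1 holds 2 and POLR1C holds 1. NOP56 lies at chromosome 20, 2652145 to 2658393, on the plus strand. After heat shock with JMJD6 siRNA these hosts did not move together, since DKC1 fell, NCL and POLR1C rose, and NOP56 and NOP58 were not called. A 3' tag reads the host messenger RNA and not the small RNAs, so the small RNAs themselves were not measured.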

How the data were processed

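Messenger RNA of PC3M cells was measured by 3' tag sequencing (QuantSeq FWD) in 17 libraries, and the authors deposited a table of normalised counts for 8 MG132 and 9 heat shock libraries. The signal values deposited by the authors are tag counts per gene that they had normalised, as the tables' names state, and are not whole counts. Per the submitters' processing notes, the tools were FastQC 0.11.2, STAR 2.6.0 and HTSeq, with build hg38. How the authors scaled the deposited values, which annotation they counted on and which genes they dropped is not stated. Low values lay within 0.1 of whole multiples of 1 read in 16.6% to 100% of cases by library, so reads were not recovered, and a count model was not used. The depth in reads is unknown.

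From the deposited values, log2(value + 1) was fitted with limma 3.58.1 in R 4.3.3 (lmFit, eBayes with trend), all groups of a table sharing 1 estimate of the spread. Genes reaching 10 in 2 (MG132) or 3 (heat shock) libraries were kept, which left 9778 and 9831. P-values were adjusted by Benjamini-Hochberg over all of them, in 9 comparisons, each within a table because the tables were normalised separately. Calls needed an adjusted p under 0.05, all tests are two-sided, and fold changes of low genes are understated by the added 1. Values in every library are given for a fixed set of 16 members and for the called members with the smallest adjusted p. The rule for members reads symbols alone, but the set and the list of further genes were chosen with earlier results of these data known, so neither is independent of the data. Alternatives were another added constant (10), no filter, a stricter filter (50), TMM scaling, quantile normalisation, a fit of the 2 groups alone, leaving out each library and the replicate number as a block.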

Additional observations from a re-analysis of the deposited data

Results flagged for a closer look

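For 3 genes the libraries of the groups compared did not overlap in either table, and the signs in the MG132 and heat shock tables were opposite. The share of all genes with this pattern was not counted. With 2 or 3 libraries a group it can arise without an effect, so the count is a description and no result about the members. Whether these effects differ was not tested, because the tables were normalised separately. NCL, nucleolin, had a log2 fold change of 0.26 with JMJD6 siRNA after heat shock and of -0.33 with JMJD6 siRNA under MG132, and only the first was called. NOLC1, the chaperone of small nucleolar ribonucleoproteins, had a log2 fold change of -0.19 in heat-shocked against basal siNT cells and of 0.29 in MG132-treated against DMSO-treated siNT cells, neither of them called. RRP1, a large subunit factor, had -0.15 with heat shock and 0.67 with MG132 in siNT cells, neither of them called. The members of the set were not screened for outlying single libraries, since each group holds 2 or 3.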

How the results depend on the processing

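Alternatives mostly left the larger heat shock differences in place and moved the MG132 ones. The number of genes called with JMJD6 siRNA under MG132 was 6. It became 1 without a filter, 1 with the 2 groups fitted alone, and 1 to 5 when 1 library was left out. The 7 genes called between KO and siJMJD6 libraries became 3 without a filter and 0 to 9 without 1 library. For siJMJD6 MG132 against siNT DMSO libraries the 4 calls became 1 without a filter, 1 with the 2 groups alone and 1 to 10 without 1 library. The 2 heat shock calls in siNT cells became 1 without a filter, 1 with the 2 groups alone and 0 to 2 without 1 library. The share of all genes called fell too without a filter. It went from 13.6% to 4.79% for JMJD6 siRNA under MG132 and from 20.8% to 10.4% between KO and siJMJD6 libraries. For siJMJD6 MG132 against siNT DMSO it went from 13.4% to 5.25%, and for heat shock in siNT cells from 4.09% to 2.67%. With the 2 groups alone these shares were 6.89%, 18.3%, 7.7% and 3.96%. They also varied between fits without 1 library. Where leaving out a library left a group with 1, that library was assumed to vary like the other groups. With JMJD6 siRNA after heat shock the 19 calls stayed between 15 (stricter filter, 35 members tested) and 20, and the 25 against basal libraries between 20 and 26. The 8 higher and 11 lower of those 19 became 8 and 8 with TMM scaling and 8 and 9 with quantile normalisation, so the excess of lower calls depended on the scaling. Over all genes the shares called ran from 35.3% (no filter) to 56.8% (stricter filter) and from 35% to 57.8%. The comparisons of siNT MG132 with siNT DMSO, and of KO with siNT MG132 or siNT DMSO, had 0 calls under every alternative run. No called gene changed direction, 149 values of called genes in single alternatives missed the threshold and 823 kept it. The cause was not tested. Libraries with the same replicate number correlated at 0.0447 to 0.368 (MG132) and -0.0348 to 0.0943 (heat shock) in their deviations from group means. With 2 libraries a group the deviations are mirror images, so each pair of MG132 groups gives 1 value (0.368, 0.318 and 0.0447). That 6 of 6 MG132 libraries correlated best with their own number follows from the signs of these values. Of 9 heat shock libraries 5 did. Since not every pair was over 0.1 in either table, the numbers were not taken as pairs. The MG132 values were all above 0, but so few values cannot decide whether the libraries are paired. With the replicate number as a block, the calls were 0 for siNT MG132 against DMSO, 9 and 11 for siJMJD6 MG132 against siNT MG132 and DMSO (18.8% and 19.9% of all genes, so that the share of the 43 members lies above that of all genes in the second, where it lay below it without the block), 2 for heat shock in siNT cells, and 18 and 25 for siJMJD6 heat shock against siNT heat shock and basal. No paired analysis was possible for KO libraries, because they carry letters and no number. With 2 or 3 libraries a group and unknown read depth, small changes of low genes were not detectable.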
